A study of Homo sapiens with 20 samples.

Results

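The cornified envelope and terminal differentiation genes described here are 42 genes of the 57500 listed in each count file. They were chosen by name for their known roles in the outer layers of the epidermis, and all 42 were found in the files. They comprise 7 S100-fused and glutamine-rich envelope precursors, 5 late envelope and corneodesmosome proteins, 2 plakins, 4 transglutaminases, 4 protease inhibitors, 6 secreted, calcium-binding and surface proteins, 2 proteases, 4 barrier lipid genes and 8 transcription factors.

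RNA-seq was performed on NTERT cells, an immortalized line of human keratinocytes, either wild type (WT) or with the gene for the eIF2 kinase GCN2 disrupted by CRISPR (GCN2KO). GCN2 phosphorylates the translation factor eIF2 when uncharged tRNAs accumulate. Both genotypes were left unwounded or subjected to high-density wounding (HDW), a grid of scratches that places many cells next to a wound edge, with total RNA taken 6 h after wounding. This gave 4 groups of 5 libraries, unwounded and HDW for WT and unwounded and HDW for GCN2KO. All groups were grown in low-calcium EpiLife medium per the labels, and the methods describe exposure to raised calcium and serum before HDW without stating separately whether the unwounded cultures had it. GCN2KO cells were an edited pool and WT cells carried a control guide, so a genotype difference and any other difference between those populations cannot be told apart. Nothing states that the 5 libraries of a group came from separate editing or thawing of cells, and the p-values measure only the spread between these libraries.

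As keratinocytes leave the basal layer they replace the plasma membrane with a cornified envelope, a sheet of proteins such as involucrin, small proline-rich proteins, periplakin and envoplakin that transglutaminases link by isopeptide bonds. Ceramides and other lipids are then attached to its outer face, protease inhibitors are built into it, and proteases process filaggrin and later release the dead cells. Many of the precursor genes lie side by side in the epidermal differentiation complex on chromosome 1q21. Transcription factors such as the Grainyhead-like proteins, KLF4, OVOL1, PRDM1 and ZNF750 are known to drive this program.

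Library totals ran from 14083504 to 34611570 counts, with medians of 23685751 (unwounded) and 34209033 (HDW) for WT and of 33981257 (unwounded) and 33995865 (HDW) for GCN2KO. EIF2AK4, which encodes GCN2, was at 3980 to 4555 normalized read counts in the 10 WT libraries and at 806 to 962 in the 10 GCN2KO libraries. Normalized read counts are deposited counts scaled to a common library size. Basal keratinocyte markers were abundant in every library, with the 10 genes of that list summing to 794313 to 830097 normalized read counts in WT without and 692526 to 760665 with HDW, and to 537243 to 626447 in GCN2KO without and 630617 to 674887 with HDW. Of the spinous layer markers, KRT10 averaged 1261 ± 286 normalized read counts in WT unwounded (SD, n = 5), KRT1 averaged 22.4 ± 6.34 and DSG1 averaged 0.791 ± 0.781. The label of terminal differentiation was therefore not matched by its latest markers: LORICRIN, the main protein of the mature envelope, had no count in any WT unwounded library and at most 2.52 normalized read counts in any library. Of 6 melanocyte markers, TYR and SOX10 were at 0 in all 20 libraries and 4 averaged under 10 normalized read counts in each group, whereas PMEL averaged 41.2 to 58 and MLANA 21.1 to 38.9 over the groups. The list summed to 57.6 to 74.9 in WT and 73.1 to 106 in GCN2KO without HDW, and to 56.5 to 71.7 and 65.9 to 102 with it, and MLANA was at a log2 fold change of 0.79 in GCN2KO after HDW (adjusted p = 0.0021). Of 7 fibroblast markers, 5 averaged under 10 in each group, while COL1A1 was at 892 ± 53.4 normalized read counts in WT unwounded and 736 ± 93.2 in GCN2KO unwounded. DCN averaged 23.2 to 54.7 over the groups and was lower in WT after HDW (log2 -1.23, adjusted p = 7.56e-04). Of 5 leukocyte markers, 3 averaged under 10 in each group, while CD68 averaged 48.5 to 98.3 and CD74 149 to 210. Of 4 endothelial markers, KDR was the highest, at means of 9.19 to 21. The part of such cells in the results was not tested. GCN2KO HDW replicate 5 stood farthest from the other libraries of its group, with an SD of 0.257 (log2) over genes against 0.109 to 0.192 in the others of that group. All 5 GCN2KO unwounded libraries were nearly as far from their group, at 0.203 to 0.251. WT libraries were at 0.126 to 0.19 unwounded and 0.121 to 0.198 after HDW. In bulk RNA, fewer cells that express a gene and less RNA per cell cannot be told apart.

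Per transcript length, the module spanned a wide range of levels, down to genes with a few counts. In WT unwounded, 14 genes were over 10 RPKM (counts per kilobase of exon, scaled to library size), 14 were between 1 and 10 and 14 were under 1. The same classes held 15, 14 and 13 genes in WT HDW, and in GCN2KO they held 18, 9 and 15 without and 20, 8 and 14 with HDW. The highest in WT unwounded was CSTA, the cysteine protease inhibitor cystatin A, with a mean of 260.0 RPKM. It was followed by A2ML1, a broad protease inhibitor of the epidermis, at 201 RPKM, by PI3, the elastase inhibitor elafin, at 172 RPKM and by PPL, periplakin, at 51.3 RPKM. The library ranges of CSTA, A2ML1, PI3 and PPL did not overlap between neighbours in that order. From PPL down through IVL, LYPD3, ELF3, CASP14, SCEL and TGM1 the ranges of neighbours overlapped, so that the order of neighbours is not resolved. Genes farther apart could still be separate. PPL (48.4 to 55.6 RPKM) and IVL (47.3 to 57.4) lay wholly above ELF3 (42.2 to 44.7), SCEL (31 to 37.5) and TGM1 (28 to 37.5). In GCN2KO HDW, PI3 at 685 RPKM and IVL at 280.0 RPKM stood above CSTA at 176 RPKM. At the low end, TGM3 had no count in the 10 WT libraries and 2 counts in all over GCN2KO unwounded, and FLG2 had 3 counts in all over WT unwounded.

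**Figure D1:**
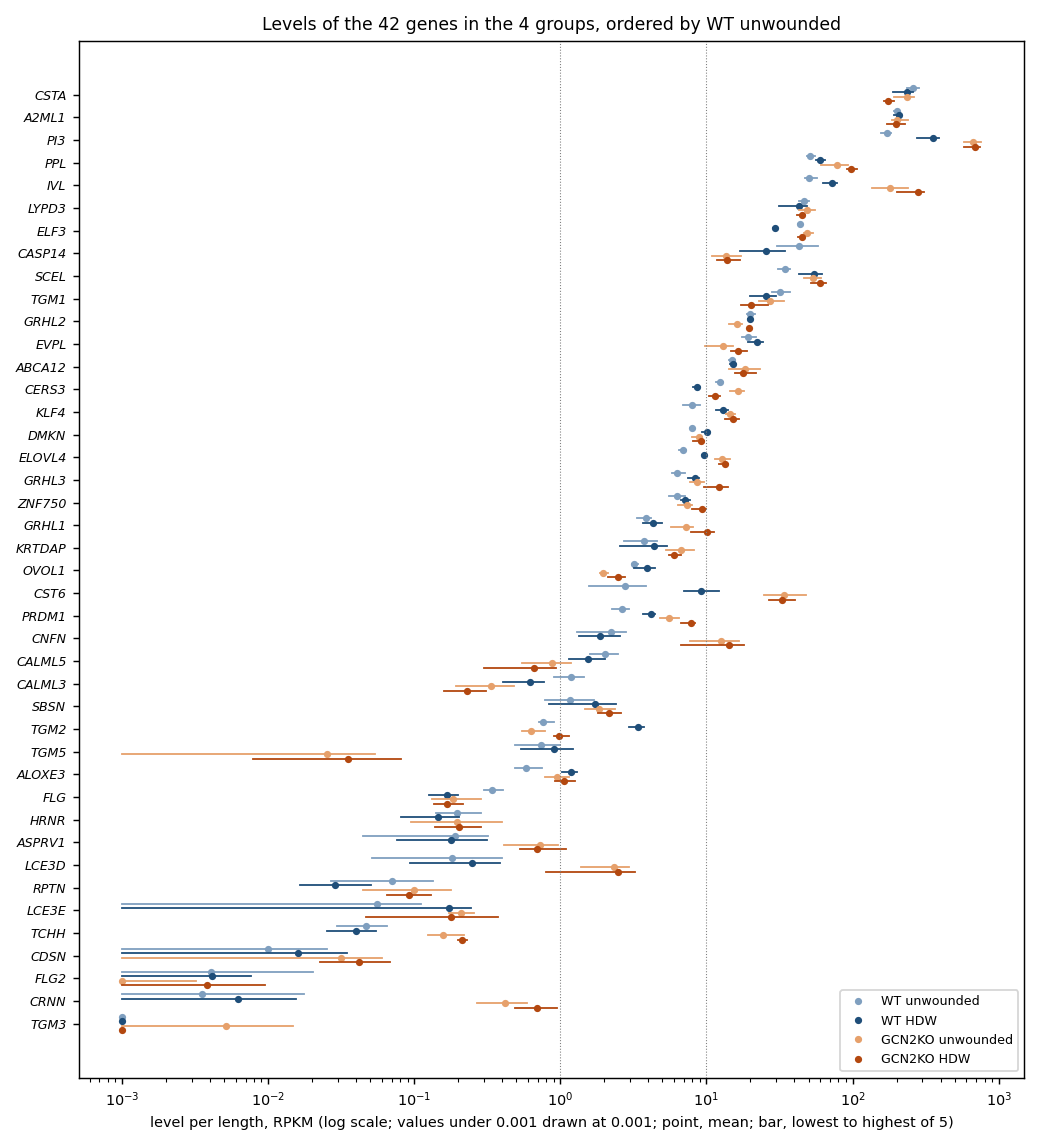
Level per length of the 42 genes in RPKM (log axis) in each group, ordered by the mean in WT unwounded. Points are means of 5 libraries and bars run from the lowest to the highest library. CST6, CNFN, LCE3D and CRNN sit far to the right in both GCN2KO groups, and TGM5 sits far to the left in them.

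Some of the members shared features of position and sequence. On GRCh38, 9 of the 42 (TCHH, RPTN, HRNR, FLG, FLG2, CRNN, LCE3E, LCE3D and IVL) lie within chr1:152106317-152911886, a span of 0.806 Mb. RefSeq promoter windows (250 bases before to 50 after the start site, GRCh38.p14) were used for 32 members in 46 windows. The AP-1 type motif TGANTCA, which reads the same on both strands, was present in 15 of the 46 windows (32.6%), against 7.71% of all 35116 windows of that length. The TATA box type motif TATAAA, searched on both strands, was present in 11 of the 46 (23.9%) against 11.5% of all windows, and the Grainyhead type motif AACNGGTT, also on both strands, in 2 of the 46 (4.35%) against 1.73%. Of the 9 members at 1q21, 6 held TGANTCA and 6 held TATAAA. These motifs do not overlap one another in the windows shown. A match is a description of letters and not of a bound site.

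The windows of IVL, CRNN and TCHH, which were higher in GCN2KO, are shown beside those of FLG, CASP14 and TGM5, which were not. They are written in the direction of transcription, with matches to the 3 motifs in capitals. IVL is at chr1:152908296-152908595 (plus strand), CRNN at chr1:152414214-152414513 (minus), TCHH at chr1:152115395-152115694 (minus), FLG at chr1:152325190-152325489 (minus), CASP14 at chr19:15049230-15049529 (plus) and TGM5 at chr15:43266879-43267178 (minus).
IVL: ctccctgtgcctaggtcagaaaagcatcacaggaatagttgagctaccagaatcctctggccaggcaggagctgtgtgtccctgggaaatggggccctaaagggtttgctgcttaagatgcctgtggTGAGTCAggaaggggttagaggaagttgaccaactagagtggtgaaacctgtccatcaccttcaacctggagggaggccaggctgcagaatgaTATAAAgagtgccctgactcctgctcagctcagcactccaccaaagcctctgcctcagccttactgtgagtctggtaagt
CRNN: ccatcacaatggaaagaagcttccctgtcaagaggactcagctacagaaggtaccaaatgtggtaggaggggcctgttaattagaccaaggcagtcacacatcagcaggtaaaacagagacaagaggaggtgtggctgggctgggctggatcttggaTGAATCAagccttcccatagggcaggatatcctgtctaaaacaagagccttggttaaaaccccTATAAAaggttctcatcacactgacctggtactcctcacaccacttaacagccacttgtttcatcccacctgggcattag
TCHH: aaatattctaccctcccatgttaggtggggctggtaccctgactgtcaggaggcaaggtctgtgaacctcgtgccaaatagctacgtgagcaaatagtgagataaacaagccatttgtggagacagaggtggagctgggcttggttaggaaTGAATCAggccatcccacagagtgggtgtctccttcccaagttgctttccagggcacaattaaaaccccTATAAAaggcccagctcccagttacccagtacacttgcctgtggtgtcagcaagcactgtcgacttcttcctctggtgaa
FLG: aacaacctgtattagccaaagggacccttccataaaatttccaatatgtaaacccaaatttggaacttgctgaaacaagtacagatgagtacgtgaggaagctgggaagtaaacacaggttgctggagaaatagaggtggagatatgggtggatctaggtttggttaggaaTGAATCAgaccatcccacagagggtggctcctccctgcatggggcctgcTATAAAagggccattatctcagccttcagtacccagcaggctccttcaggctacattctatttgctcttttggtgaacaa
CASP14: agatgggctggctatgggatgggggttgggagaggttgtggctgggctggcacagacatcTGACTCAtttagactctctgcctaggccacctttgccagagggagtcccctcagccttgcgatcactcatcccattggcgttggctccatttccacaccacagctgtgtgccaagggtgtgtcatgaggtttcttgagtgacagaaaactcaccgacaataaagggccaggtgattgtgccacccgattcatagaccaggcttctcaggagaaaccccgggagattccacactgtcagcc
TGM5: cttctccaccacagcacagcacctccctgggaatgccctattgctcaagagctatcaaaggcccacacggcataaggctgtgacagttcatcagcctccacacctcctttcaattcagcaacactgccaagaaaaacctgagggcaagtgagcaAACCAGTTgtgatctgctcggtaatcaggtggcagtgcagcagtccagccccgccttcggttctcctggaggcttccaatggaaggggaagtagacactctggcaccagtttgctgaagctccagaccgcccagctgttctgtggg
In IVL, CRNN, TCHH and FLG the TATAAA match began 30 bases before the start site (position -30). The TGANTCA match began at position -123 in IVL, -93 in CRNN, -99 in TCHH, -79 in FLG and -190 in CASP14. The capitals of TGM5 are a match to AACNGGTT on the opposite strand, beginning at position -96. FLG held the same pair of motifs as IVL, CRNN and TCHH. The windows shown are chosen examples, and a link between these motifs and the genotype differences was not tested.

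To address how loss of GCN2 affects these genes, GCN2KO was compared with WT separately in unwounded and HDW cultures. A gene was called differentially expressed (DE) where its log2 fold change reached 1 in either direction and its p-value, adjusted over all genes tested, did not exceed 0.05. In unwounded cells 9 of the 42 genes were higher and 4 were lower in GCN2KO, with 37 having enough counts to be tested. Of all 15348 genes tested, 8.21% were higher and 8.22% lower. After HDW 8 were higher and 4 lower, again with 37 tested, against 7.1% higher and 7.83% lower of all 15855 genes. The median log2 fold change of the tested members was 0.41 unwounded and 0.33 after HDW, against 0.004 and 0.002 over all genes tested. By adjusted p alone 23 members were higher and 8 lower unwounded, against 33.4% and 33.1% of all genes tested, and 19 were higher and 10 lower after HDW, against 35.9% and 35.8%. CRNN, TCHH, LCE3D and ASPRV1 entered the tests only through their counts in GCN2KO, and TGM5 only through its counts in WT, so these genes had to differ and the counts and medians over tested members are no support for a shift of the module. With a filter on the mean count over both groups (at least 50) 5 were higher and 1 lower in unwounded cells, and 4 higher and 2 lower after HDW. A gene can pass this filter through a single group as well. In unwounded cells CNFN had 152 raw counts over WT and 1161 over GCN2KO, and CST6 had 192 and 3041. After HDW TGM5 had 546 over WT and 18 over GCN2KO. No share of all genes is given for this filter, so these counts are no support for a shift either.

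**Figure D2:**
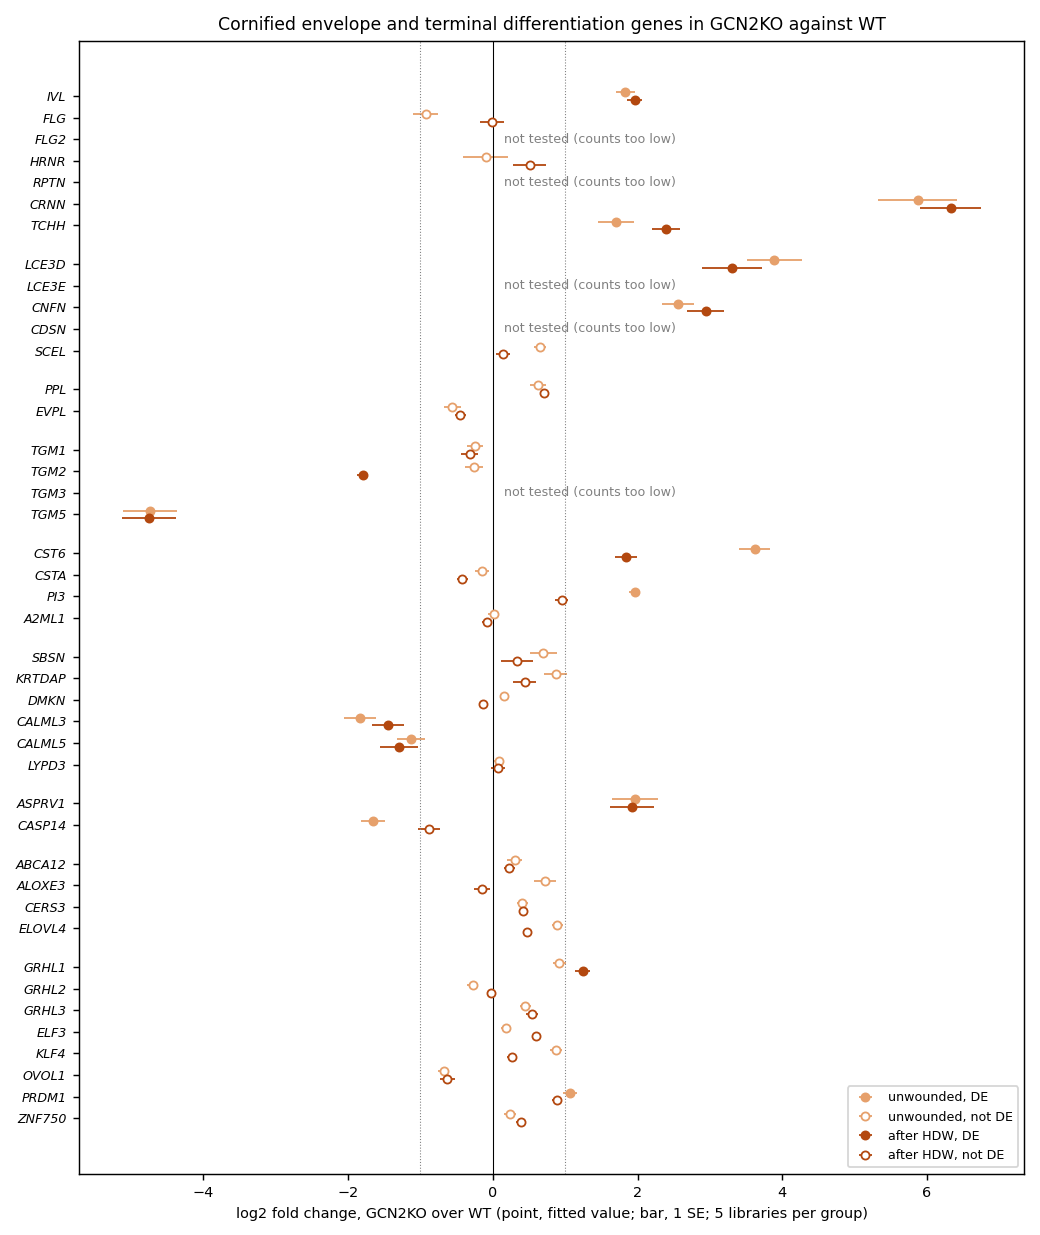
Log2 fold change of GCN2KO over WT for each gene, grouped by role, in unwounded cultures (light) and after HDW (dark). Bars are 1 SE, filled points are DE and dotted lines mark the fold threshold. CRNN is highest, at a fitted 5.87 and 6.33 that rest on 1 and 2 counts in WT, and TGM5 lowest at -4.74 and -4.75, while most transcription factors, plakins and lipid genes lie between the dotted lines.

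The same direction was DE in both states for 10 genes. IVL, CRNN, TCHH, LCE3D, CNFN, CST6 and ASPRV1 were higher in both, which is 77.8% of those higher unwounded and 87.5% of those higher after HDW. TGM5, CALML3 and CALML5 were lower in both, 75% of those lower in each state. Among them CRNN, TCHH, LCE3D, ASPRV1 and TGM5 had to differ, because each entered the tests only through the genotype where it was high. The share of all genes DE in both states is not given, so these percentages are no support for a trait of the module. PI3 and PRDM1 passed as higher in unwounded cells only, GRHL1 as higher after HDW only, CASP14 as lower in unwounded cells only and TGM2 as lower after HDW only. The values in each state are given with the genes below, and tests of the differences between states follow them.

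Among the envelope precursors, IVL (ENSG00000163207, chr1:152908546-152911886) encodes involucrin, an early scaffold of the envelope. Its 5 libraries in WT unwounded held 3551, 2928, 3172, 2978 and 3002 normalized read counts, and those in GCN2KO unwounded held 8430, 12664, 10593, 14742 and 8928. After HDW they held 4688, 3858, 4300, 4861 and 4616 in WT and 19069, 17997, 18509, 18699 and 12468 in GCN2KO. Every GCN2KO library was above every WT library of the same state, and GCN2KO HDW replicate 5 was the lowest of its group. All 5 libraries lay above all 5 others in 26.3% of all genes tested in unwounded cells and in 27.9% after HDW, and below them in 27% and 29.3%. The log2 fold change was 1.83 (SE 0.131, adjusted p = 4.94e-09) unwounded and 1.96 (SE 0.104, adjusted p = 1.92e-09) after HDW, or 3.55-fold and 3.89-fold.

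CRNN (ENSG00000143536, chr1:152409243-152414263) encodes cornulin, a fused S100 protein of squamous epithelium. It was nearly absent from WT, with 0, 0, 0, 0 and 0.964 normalized read counts unwounded and 0.843, 0, 0.844, 0 and 0 after HDW. GCN2KO libraries held 14.8, 32.2, 25.4, 21 and 21.1 unwounded and 35.9, 35.1, 40.3, 51.8 and 26.8 after HDW. The groups did not overlap in either state. In raw counts this was 113 against 1 over the unwounded libraries, a depth-scaled ratio of 89.7 with a 95% counting interval of 15.8 to 3573, and 192 against 2 after HDW, a ratio of 105 (28.7 to 873). The adjusted p was 1.02e-07 unwounded and 1.44e-08 after HDW. CRNN remained a low gene, at 0.419 RPKM in GCN2KO unwounded.

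TCHH encodes trichohyalin, a fused S100 protein best known from hair follicles. Its libraries held 5.96, 8.92, 8.45, 13.0 and 10.6 normalized read counts in WT unwounded against 25.0, 26.1, 29.8, 43.7 and 34.6 in GCN2KO unwounded. After HDW they held 10.1, 10.9, 5.06, 7.98 and 6.05 in WT and 40.9, 40.2, 43.6, 43.5 and 46.0 in GCN2KO. The ranges were apart in both states. The log2 fold change was 1.70 (SE 0.247, adjusted p = 1.46e-05) unwounded and 2.39 (SE 0.19, adjusted p = 7.02e-08) after HDW.

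FLG, HRNR and RPTN, neighbours of these genes at 1q21, were not called. FLG, the filament-aggregating protein that is degraded to natural moisturizing factor, held 149, 111, 112, 136 and 121 normalized read counts in WT unwounded and 63.7, 106, 63.2, 56.3 and 49.0 in GCN2KO unwounded, where replicate 2 alone came near the WT range. Its log2 fold change of -0.93 (SE 0.174, adjusted p = 1.84e-04) passed the p threshold but not the fold threshold, and without GCN2KO unwounded replicate 2 it was -1.12 and DE. After HDW its log2 fold change was -0.01, with an interval of 2 SE from -0.33 to 0.32. HRNR, hornerin, gave log2 fold changes of -0.10 (adjusted p = 0.80) and 0.51 (adjusted p = 0.0613). RPTN, repetin, had too few counts for the pairwise tests, at 7.18 ± 4.19 normalized read counts in WT unwounded and 10.2 ± 5.25 in GCN2KO unwounded (SD, n = 5), where the ranges overlapped. After HDW it held 2.53, 3.37, 1.69, 1.99 and 5.19 in WT and 7.51, 13.4, 6.71, 8.36 and 11.5 in GCN2KO, without overlap. FLG shares 12.4% of its exonic bases with its antisense gene FLG-AS1, and whether the counting used strand is not stated.

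Of the late envelope proteins, LCE3D, a late cornified envelope gene of the same locus, held 3.97, 7.14, 2.42, 0.929 and 1.93 normalized read counts in WT unwounded and 25.0, 32.2, 49.1, 53.0 and 49.0 in GCN2KO unwounded. After HDW it held 2.53, 5.89, 1.69, 6.98 and 5.19 in WT and 58.4, 42.7, 51.2, 56.8 and 14.4 in GCN2KO. All GCN2KO libraries exceeded all WT libraries, with GCN2KO HDW replicate 5 again lowest. The log2 fold change was 3.89 (SE 0.379, adjusted p = 1.75e-07) unwounded and 3.30 (SE 0.415, adjusted p = 6.30e-06) after HDW. LCE3D and LCE3E are near copies, so that reads may be split between them. LCE3E was not tested, with 19 raw counts over GCN2KO unwounded against 3 over WT unwounded, a ratio of 5.03 (95% counting interval 1.48 to 26.5). After HDW the raw counts were 17 over GCN2KO and 18 over WT.

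CNFN, cornifelin, a minor cysteine-rich envelope component, held 49.7, 42.8, 22.9, 40.9 and 38.6 normalized read counts in WT unwounded and 136, 199, 295, 269 and 215 in GCN2KO unwounded. After HDW the values were 26.1, 23.6, 35.4, 34.9 and 45.0 in WT and 318, 293, 290, 241 and 119 in GCN2KO. The groups were apart in both states. CNFN was 5.89-fold higher unwounded (log2 2.56, SE 0.218, adjusted p = 3.69e-08) and 7.68-fold higher after HDW (log2 2.94, SE 0.259, adjusted p = 1.85e-07). SCEL, sciellin, was already abundant in WT unwounded at 4160 ± 291 normalized read counts and was at 6508 ± 821 in GCN2KO unwounded, a log2 fold change of 0.65 (SE 0.0851, adjusted p = 4.91e-06), and after HDW its log2 fold change was 0.14 (adjusted p = 0.20). CDSN, corneodesmosin, which holds corneocytes together, was not tested, with at most 6 raw counts in any library, and it shares 93.7% of its exonic bases with PSORS1C1 on the other strand.

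The plakins differed between genotypes in opposite directions by adjusted p, and neither passed the fold threshold. PPL, periplakin, averaged 11358 ± 631 normalized read counts in WT unwounded and 17370 ± 3370 in GCN2KO unwounded (log2 0.62, SE 0.112, adjusted p = 1.39e-04). EVPL, envoplakin, its partner, averaged 4061 ± 351 and 2752 ± 556 (log2 -0.56, SE 0.118, adjusted p = 5.56e-04). After HDW the log2 fold changes were 0.71 (adjusted p = 1.92e-08) for PPL and -0.45 (adjusted p = 9.75e-05) for EVPL, and in both states no library of one genotype fell within the range of the other.

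No transglutaminase was higher in GCN2KO. TGM5 (ENSG00000104055, chr15:43232590-43266928), which acts in the upper layers, held 101, 51.7, 105, 57.6 and 77.1 normalized read counts in WT unwounded and 5.68, 0, 0.877, 4.20 and 2.53 in GCN2KO unwounded. After HDW it held 129, 57.2, 82.7, 114 and 97.7 in WT and 0.834, 1.67, 2.52, 5.02 and 8.62 in GCN2KO. The highest GCN2KO library was far below the lowest WT library in each state. TGM5 was 26.8-fold lower in GCN2KO unwounded (log2 -4.74, SE 0.371, adjusted p = 1.39e-08) and 26.9-fold lower after HDW (log2 -4.75, SE 0.373, adjusted p = 6.43e-08), over 14 raw counts in GCN2KO unwounded and 18 in GCN2KO HDW.

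TGM2, tissue transglutaminase, differed between genotypes after HDW. Its libraries held 165, 205, 163, 168 and 165 normalized read counts in WT unwounded and 178, 124, 129, 155 and 132 in GCN2KO unwounded, which overlap (log2 -0.26, interval -0.49 to -0.02, adjusted p = 0.0668). After HDW they held 786, 679, 772, 810 and 848 in WT and 218, 207, 215, 214 and 262 in GCN2KO, which are well apart (log2 -1.80, SE 0.0768, adjusted p = 3.29e-10). TGM1, the main membrane-bound transglutaminase of the epidermis, averaged 3453 ± 437 normalized read counts in WT unwounded and 2907 ± 499 in GCN2KO unwounded (log2 -0.24, adjusted p = 0.061), and after HDW its log2 fold change was -0.32 (adjusted p = 0.0235). TGM3 was not tested.

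Of the protease inhibitors, CST6 and PI3 were higher in GCN2KO unwounded and CSTA and A2ML1 were not. CST6 (ENSG00000175315), cystatin M/E, a cysteine protease inhibitor that is itself linked into the envelope, held 37.8, 60.7, 26.6, 66.0 and 44.3 normalized read counts in WT unwounded and 502, 425, 641, 524 and 817 in GCN2KO unwounded. After HDW it held 137, 207, 182, 119 and 133 in WT and 691, 628, 525, 488 and 457 in GCN2KO. The genotypes did not overlap, and WT HDW stood between WT unwounded and both GCN2KO groups. The difference was 12.3-fold unwounded (log2 3.62, SE 0.213, adjusted p = 5.93e-10) and 3.59-fold after HDW (log2 1.84, SE 0.151, adjusted p = 9.35e-08).

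PI3 (ENSG00000124102), elafin, held 2888, 2489, 2861, 2630 and 2752 normalized read counts in WT unwounded and 5980, 4361, 5456, 6026 and 6221 after HDW. In GCN2KO it held 10872, 10043, 12072, 10897 and 9107 unwounded and 11553, 10580, 11118, 11821 and 9226 after HDW. As with CST6, WT HDW lay between WT unwounded and the GCN2KO groups without overlap. The log2 fold change between genotypes was 1.96 (SE 0.0801, adjusted p = 1.48e-11) unwounded and 0.95 (SE 0.0902, adjusted p = 3.81e-07) after HDW, where it fell short of the fold threshold, and it was 1.01 and DE without GCN2KO HDW replicate 5. For A2ML1 the log2 fold change was 0.01 unwounded (interval of 2 SE from -0.15 to 0.17) and -0.08 after HDW (-0.21 to 0.06). CSTA gave -0.15 unwounded (-0.34 to 0.05) and -0.42 after HDW (SE 0.0807, adjusted p = 3.32e-04).

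Among the 6 secreted, calcium-binding and surface proteins, the calmodulin-like genes were the ones called. CALML3 held 75.5, 55.3, 68.8, 61.3 and 47.2 normalized read counts in WT unwounded and 25.0, 21.5, 16.7, 10.1 and 14.4 in GCN2KO unwounded, and 29.5, 38.7, 40.5, 20.9 and 32.9 in WT HDW and 11.7, 8.37, 11.7, 11.7 and 16.3 in GCN2KO HDW. GCN2KO was lower in every library of each state (log2 -1.84, SE 0.222, adjusted p = 2.02e-06 unwounded, and -1.45, SE 0.225, adjusted p = 4.73e-05 after HDW). CALML3 shares 52.4% of its exonic bases with antisense transcripts, and reads of the strands may not be separated. CALML5, a calcium-binding protein of the differentiating layers, held 51.7, 62.5, 50.7, 40 and 48.2 normalized read counts in WT unwounded and 29.6, 13.8, 25.4, 21.9 and 20.3 in GCN2KO unwounded (log2 -1.13, SE 0.195, adjusted p = 8.59e-05). The HDW libraries held 40.5, 31.1, 50.6, 43.9 and 28.5 in WT and 11.7, 21.7, 7.55, 23.4 and 18.2 in GCN2KO (log2 -1.29, SE 0.262, adjusted p = 5.05e-04). Its library ranges were apart in both states.

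The 3 genes of a cluster on chromosome 19 that encode secreted epidermal proteins, SBSN, KRTDAP and DMKN, were higher in GCN2KO unwounded by adjusted p alone, as were 33.4% of all genes tested, with log2 fold changes of 0.70 (SE 0.192), 0.87 (SE 0.161) and 0.16 (SE 0.0595). After HDW KRTDAP was at 0.44 (adjusted p = 0.0237), DMKN at -0.13 (adjusted p = 0.0411) and SBSN at 0.33 (adjusted p = 0.193). LYPD3, a surface protein, gave 0.08 unwounded (interval -0.07 to 0.23) and 0.07 after HDW (-0.13 to 0.27).

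The proteases differed in opposite directions. ASPRV1, the aspartic protease that cleaves profilaggrin, held 1.99, 14.3, 9.66, 4.65 and 11.6 normalized read counts in WT unwounded and 31.8, 18.4, 43.0, 32.8 and 36.3 in GCN2KO unwounded. After HDW the values were 3.37, 5.05, 7.60, 14.0 and 9.51 in WT and 29.2, 23.4, 28.5, 48.5 and 24.9 in GCN2KO. GCN2KO was higher throughout, with log2 fold changes of 1.96 (SE 0.318, adjusted p = 4.66e-05) and 1.92 (SE 0.305, adjusted p = 6.01e-05). ASPRV1 lies in an exon of PCBP1-AS1 on the same strand (99% of its exonic bases), so that its counts are uncertain. CASP14, the caspase of cornification that completes filaggrin breakdown, held 5239, 3419, 5716, 2955 and 3718 normalized read counts in WT unwounded and 1692, 1441, 1070, 1293 and 1172 in GCN2KO unwounded. Every GCN2KO library was below every WT library, and the log2 fold change was -1.66 (SE 0.168, adjusted p = 2.86e-07). After HDW CASP14 was at -0.88 (SE 0.156, adjusted p = 1.62e-04), and it was DE, just past the fold threshold, without WT HDW replicate 2.

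None of the 4 barrier lipid genes was DE between genotypes, but all 4 passed the p threshold as higher in GCN2KO unwounded, a threshold that 33.4% of all genes tested passed as higher. Log2 fold changes there were 0.89 for ELOVL4, which elongates very long chain fatty acids (adjusted p = 5.05e-08), 0.72 for ALOXE3, a lipoxygenase of lipid attachment (adjusted p = 6.72e-04), 0.41 for CERS3, the ceramide synthase of the barrier (adjusted p = 7.43e-05), and 0.30 for ABCA12, the lamellar granule lipid transporter (adjusted p = 0.0226). After HDW ELOVL4, CERS3 and ABCA12 passed the p threshold at 0.47, 0.42 and 0.23, while ALOXE3 was at -0.15 (adjusted p = 0.206).

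Of the 8 transcription factors, 6 passed the p threshold as higher and 2 as lower in GCN2KO unwounded, against 33.4% and 33.1% of all genes tested. In each state 1 of the 8 was DE (12.5%), next to the 8.21% and 7.1% of all genes that were higher. PRDM1, the repressor BLIMP1, held 509, 550, 437, 569 and 504 normalized read counts in WT unwounded and 1022, 1266, 1000, 1158 and 927 in GCN2KO unwounded (log2 1.07, SE 0.0945, adjusted p = 5.86e-08). After HDW it held 708, 859, 820, 857 and 837 in WT and 1614, 1583, 1502, 1560 and 1293 in GCN2KO (log2 0.89, SE 0.0677, adjusted p = 4.88e-08). The genotypes were apart in both states. GRHL1, a Grainyhead-like activator of desmosomal and barrier genes, held 938, 914, 961, 769 and 833 in WT unwounded and 1301, 1743, 1783, 1857 and 1631 in GCN2KO unwounded (log2 0.92, SE 0.0936, adjusted p = 2.83e-07). After HDW it held 1062, 840, 878, 1137 and 997 in WT and 2572, 2402, 2373, 2447 and 1781 in GCN2KO (log2 1.24, SE 0.0998, adjusted p = 8.25e-08), again without overlap. GRHL3 was at 0.45 and 0.54, KLF4 at 0.87 and 0.26, ELF3 at 0.18 and 0.60 and ZNF750 at 0.24 and 0.39 in unwounded and HDW cultures, each past the p threshold. OVOL1, which promotes the exit of progenitors from the cell cycle, was lower at -0.68 (adjusted p = 1.08e-06) and -0.63 (adjusted p = 7.29e-05). OVOL1 shares 27.3% and ELF3 18.5% of their exonic bases with other genes, so that reads may not be separated. GRHL2 was at -0.28 unwounded (adjusted p = 0.00231) and -0.02 after HDW (adjusted p = 0.711).

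**Figure D3:**
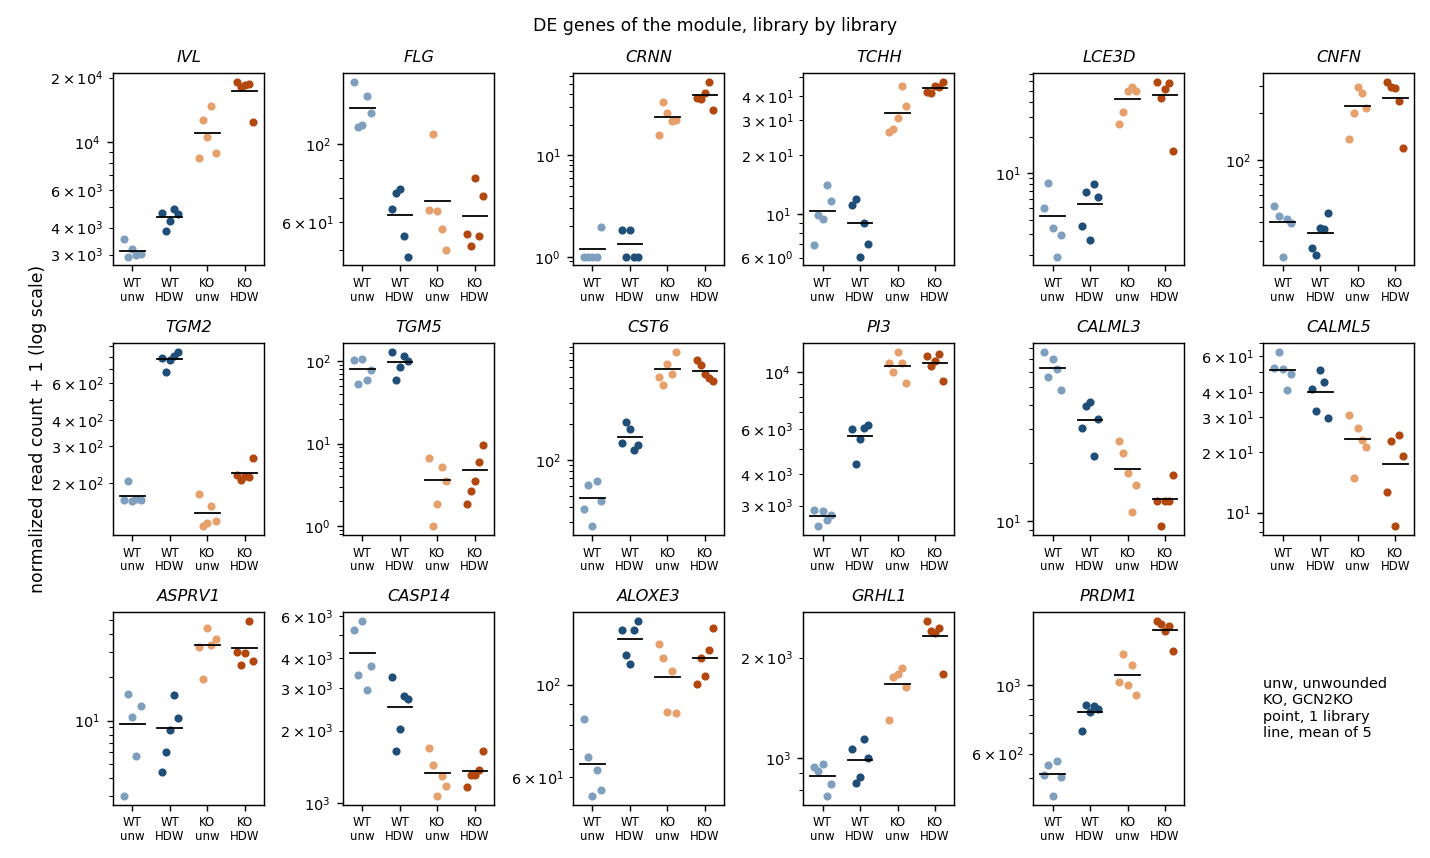
Normalized read counts plus 1 (log axis) of the 17 genes that were DE in at least 1 comparison, with each point a library and each line a mean of 5. IVL, CRNN, TCHH, LCE3D, CNFN, CST6 and ASPRV1 are higher and TGM5 is lower in all GCN2KO libraries than in all WT libraries of the same state, and TGM2 rises in WT HDW to 679 to 848.

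HDW was then compared with unwounded cells within each genotype, to ask which of these genes respond to wounding. In WT, 4 genes were higher and 1 lower after HDW, with 33 tested, against 2.62% higher and 1.55% lower of all 15348 genes tested. The median log2 fold change was 0.22 in the members tested and -0.002 over all genes. TGM2 rose the most among the members, from the 163 to 205 normalized read counts of WT unwounded to 679 to 848 (4.53-fold, log2 2.18, SE 0.0748, adjusted p = 2.14e-11). CST6 rose 3.27-fold (log2 1.71, SE 0.213, adjusted p = 7.71e-06) and PI3 rose 2.05-fold (log2 1.04, SE 0.0789, adjusted p = 4.46e-08). ALOXE3 rose from 81.5, 66.0, 53.1, 61.3 and 54.9 to 134, 117, 111, 134 and 141 (log2 1.04, SE 0.122, adjusted p = 4.31e-06), and it fell short of the fold threshold at 0.99 without WT unwounded replicate 3 or 5. FLG fell to 64.1, 71.5, 73.4, 53.8 and 46.7 (log2 -1.01, SE 0.135, adjusted p = 1.52e-05). Its call was lost, at -0.93 to -0.98, without WT HDW replicate 4 or 5 or WT unwounded replicate 1 or 4. In these 5 genes no WT HDW library fell within the WT unwounded range, as in 19.2% of all genes tested above and 17.7% below.

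By adjusted p alone 15 members were higher and 6 lower in WT HDW, against 26.1% and 25.2% of all genes tested. Of these, 11 were higher and 5 lower by less than the fold threshold. IVL was at 0.51 (adjusted p = 7.47e-06), SCEL at 0.65 (adjusted p = 1.27e-05), KLF4 at 0.70 (adjusted p = 8.53e-07) and PRDM1 at 0.67 (adjusted p = 1.54e-06) on the log2 scale. Among the lower, ELF3 was at -0.56 (adjusted p = 1.42e-09), CERS3 at -0.53 (adjusted p = 8.77e-08), CALML3 at -0.89 (adjusted p = 7.59e-04), CASP14 at -0.75 (adjusted p = 0.00403) and TGM1 at -0.34 (adjusted p = 0.00901).

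In GCN2KO none of the 36 members tested was DE after HDW by edgeR, and none by DESeq2, while 15 had an unadjusted p under 0.05, as had 38.1% of all genes tested. Of all 15791 genes tested, 0.475% were higher and 0.196% lower. By adjusted p alone 9 members were higher and 3 lower, against 11.9% and 10.8% of all genes. IVL was at 0.66 (SE 0.151, adjusted p = 0.0091), TGM2 at 0.64 (SE 0.115, adjusted p = 0.00252), PRDM1 at 0.50 (SE 0.0905, adjusted p = 0.00265), GRHL3 at 0.50 (SE 0.0963, adjusted p = 0.00354) and GRHL1 at 0.49 (SE 0.107, adjusted p = 0.00739). CERS3 was lower at -0.50 (SE 0.0747, adjusted p = 9.07e-04), next to -0.53 in WT. PI3 was at 0.05 with an interval of 2 SE from -0.12 to 0.22, and CST6 at -0.05 with an interval from -0.37 to 0.26.

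**Figure D4:**
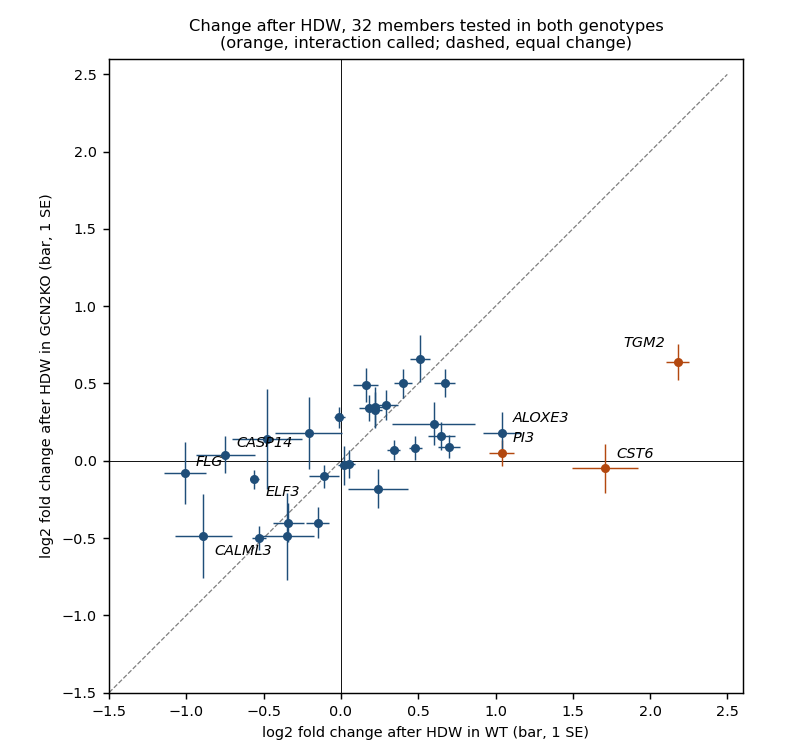
Log2 fold change after HDW in WT (horizontal) and in GCN2KO (vertical) for the 32 genes tested in both genotypes, with bars of 1 SE and a dashed line of equal change. TGM2, CST6 and PI3 (orange) lie far to the right of the line, and most genes lie within 1 unit of the origin.

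A difference between genotypes in the change after HDW was tested by the interaction term of a fit to the 20 libraries. Of 38 members tested, 3 changed less in GCN2KO than in WT and none changed more by edgeR at both thresholds, against 2.15% and 1.16% of all 16536 genes. By an unadjusted p under 0.05 the count of members was 14 in either direction, against 35.5% of all genes tested, and DESeq2 also gave 3 and 0. The difference of log2 fold changes (GCN2KO minus WT) was -1.77 for CST6 (SE 0.29, adjusted p = 9.42e-05), -1.54 for TGM2 (SE 0.137, adjusted p = 3.23e-08) and -1.01 for PI3 (SE 0.123, adjusted p = 2.73e-06). PI3 lies at the fold threshold, and its call was lost in 10 of the 20 fits that left out a library, at -0.95 to -0.999. For TGM2 the change after HDW was 4.53-fold in WT and 1.56-fold in GCN2KO, the latter under the fold threshold. CST6 and PI3 rose in WT from levels below those of GCN2KO unwounded and remained below them.

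By adjusted p alone, 8 members had a smaller log2 fold change after HDW in GCN2KO and 4 a larger one, against 12.5% and 11.2% of all genes tested. Those below the fold threshold included ALOXE3 at -0.87 (adjusted p = 0.00134), KLF4 at -0.62 (adjusted p = 1.53e-04), SCEL at -0.51 (adjusted p = 0.00714), ELOVL4 at -0.41 (adjusted p = 0.00196) and DMKN at -0.29 (adjusted p = 0.00797). The larger ones were FLG at 0.93 (adjusted p = 0.00784), CASP14 at 0.78 (adjusted p = 0.0243), ELF3 at 0.43 (adjusted p = 4.51e-05) and GRHL2 at 0.27 (adjusted p = 0.013). FLG passed the fold threshold at 1.11 without GCN2KO unwounded replicate 2, and just passed it without GCN2KO HDW replicate 2. IVL showed a difference of 0.13 with an interval from -0.22 to 0.48.

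Other genes of the same processes were counted for context, beside the 8.21% of all genes tested that were higher in GCN2KO unwounded and the 7.1% after HDW. SPRR2G, LCE1E, DEGS2, KLK5 and KLK6 among them entered the tests only through their counts in GCN2KO, so they had to differ. The same holds for LCE1B after HDW and for POU2F3 in unwounded cells. Of 10 SPRR genes, the small proline-rich proteins that cross-bridge the envelope, 8 were tested between genotypes. In GCN2KO 7 were higher and none lower unwounded, and 6 were higher and none lower after HDW. In unwounded cells the log2 fold changes were 4.41 for SPRR3 (SE 0.0959, adjusted p = 3.68e-14), 4.92 for SPRR2D (SE 0.158, adjusted p = 1.21e-12), 5.50 for SPRR2E (SE 0.213, adjusted p = 9.18e-12) and 5.47 for SPRR2A (SE 0.213, adjusted p = 9.18e-12). SPRR2 genes are close copies, and reads may be split between them. In WT 5 of 7 SPRR genes were higher after HDW (2.62% of all genes), and the interaction was lower in 5 of 8 (2.15% of all genes), with SPRR2D at 3.02 after HDW in WT (SE 0.10, adjusted p = 1.80e-11) and at -2.57 in the interaction (SE 0.206, adjusted p = 6.09e-09).

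Of loricrin and 16 other LCE genes, 2 had enough counts between genotypes: LCE1E was higher in GCN2KO in both states (log2 1.94 and 2.99) and LCE1B after HDW (1.24). Of 20 further lipid genes, 14 were tested, and 3 were higher and none lower unwounded. These were DEGS2 (log2 3.45), FA2H (1.92) and SULT2B1, a cholesterol sulfotransferase (1.59, SE 0.0985, adjusted p = 1.00e-09). After HDW 2 were higher, and 1, ALOX12B, was lower (log2 -1.15, SE 0.155, adjusted p = 1.29e-05). By adjusted p alone 7 lipid genes were higher and 3 lower unwounded, and 7 were higher and 4 lower after HDW. The shares of all genes tested were 33.4% higher and 33.1% lower unwounded, and 35.9% and 35.8% after HDW. Among other differentiation regulators, HOPX at 2.67 and POU2F3 at 1.40 on the log2 scale were higher in GCN2KO unwounded, and HOPX at 2.20 was higher after HDW. Of 13 desquamation proteases and inhibitors, 7 were tested: KLK6 (log2 4.81, SE 0.269, adjusted p = 3.45e-10) and KLK5 (3.90, SE 0.233, adjusted p = 6.68e-10), kallikreins that degrade corneodesmosomes, were higher unwounded, and KLK6, KLK5 and PRSS8 were higher after HDW. By adjusted p alone 4 of the 7 were higher unwounded and 1, SPINK5, was lower (log2 -0.77). After HDW 3 were higher and 3 lower by adjusted p alone.

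Of 10 basal markers, 2 were lower in GCN2KO and none higher in each state, against 8.22% lower of all genes tested unwounded and 7.83% after HDW. They were KRT15 at -1.88 (SE 0.126, adjusted p = 2.45e-09) and COL17A1 at -1.36 (SE 0.0853, adjusted p = 1.18e-09) unwounded and at -1.13 and -1.25 after HDW. By adjusted p alone 7 were lower and 2 higher in each state, the higher ones being KRT5 (0.50 unwounded and 0.52 after HDW) and SFN (0.17 and 0.24). By that threshold 33.1% of all genes tested were lower and 33.4% higher unwounded, and 35.8% and 35.9% after HDW. The spinous markers split, with DSC1 higher at 1.10 (adjusted p = 5.26e-04) and KRT1 lower at -1.06 (adjusted p = 0.00179) in GCN2KO unwounded. Their part in the differences of the members was not tested.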

How the data were processed

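Total RNA of WT and GCN2KO NTERT keratinocytes, unwounded or 6 h after HDW, was sequenced by the authors on an Illumina HiSeq instrument, with 5 libraries per group. The authors trimmed reads with Trimmomatic, used STAR for alignment (GRCh38) and featureCounts for the unique exonic reads of each gene, and the deposited values are raw counts for 57500 genes per library. The annotation release, the use of strand and the handling of overlapping genes are not given in the sources used here, so reads of overlapping genes may be shared or dropped.

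The 42 genes and the other gene lists were chosen with earlier results of these data known. Gene models were matched to GENCODE v44 (56410 of 57500 genes and all 42 members), and 14 members share exonic bases with another gene. Counts were tested with edgeR 4.0.16 (quasi-likelihood, TMM, filterByExpr with a minimum count of 10) in R 4.3.3, fitting the 10 libraries of each pair and all 20 for the interaction, with Benjamini-Hochberg adjustment over all genes tested. The DE thresholds, 1 on the log2 scale in either direction and 0.05 for the adjusted p, are those of the study. SE is the log2 fold change divided by the square root of the F statistic, and intervals are 2 SE either side. Counting intervals are exact, at 95%, and cover counting error only. RPKM used the union of exons. The testing was checked on simulated counts. Members called in any comparison are named with library values, the others by ranges and counts, and genes of other lists by count with up to 4 examples of smallest adjusted p. Alternatives were DESeq2 1.42.0, other scalings, count filters, a joint fit, thinned counts, adjusted p alone, a replicate block and leaving out each library. Promoter windows came from RefSeq. Any member window on chromosome 8, where GRHL2 lies, was left out, while the windows of all genes kept that chromosome. After this 10 members had no window. The counts of the list of other differentiation regulators are not reported here. No batch is given in the labels.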

Additional observations from a re-analysis of the deposited data

Results flagged for a closer look

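In 10 of 152 groups of 5 library values of members, 1 library stood apart from the other 4 by Dixon's test, which flags about 1 in 20 groups by chance (7.6 of 152). GCN2KO HDW replicate 5 accounted for 5 of them. It was low for IVL, the involucrin gene, at 12468 normalized read counts against 17997 to 19069, for DMKN, dermokine, at 1738 against 1983 to 2063, and for GRHL1 at 1781 against 2373 to 2572. It was high for TGM1 at 2842 against 1838 to 2119 and for TGM2 at 262 against 207 to 218. Without this library the HDW comparison of genotypes gave 9 members higher and 4 lower. The other flagged libraries were GCN2KO unwounded replicate 2 for FLG (106 normalized read counts against 49.0 to 63.7), WT unwounded replicate 5 for CRNN (0.964, which is 1 raw count, against 0), WT unwounded replicate 2 for TGM2 (205 against 163 to 168), GCN2KO HDW replicate 4 for ASPRV1 (48.5 against 23.4 to 29.2) and WT HDW replicate 1 for PRDM1 (708 against 820 to 859).

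The change after HDW differed between genotypes in 3 members, by the interaction test of edgeR at both thresholds. The difference of log2 fold changes (GCN2KO minus WT) was -1.54 for TGM2, -1.77 for CST6 and -1.01 for PI3.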

How the results depend on the processing

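Of 602 refitted values of the 33 DE results of members, 582 kept direction and call, 20 kept direction but lost the call and none reversed, and 28 of the 33 results kept their call wherever they were tested. With the filter of a mean of 50 counts 20 of the 33 were tested, and with counts thinned to the smallest library 27, so that 20 were tested under both, and 16 of these kept their call in every fit. The losses were CALML5 after HDW with counts thinned to the smallest library (-0.93), PI3 in WT HDW with library size alone as scaling (1.00), PI3 in the interaction with that scaling (-0.94) and with thinned counts (-0.98), and the leave-one-out losses given in the report. Requiring a mean of 50 counts left 5 members higher and 1 lower unwounded and 4 higher and 2 lower after HDW for GCN2KO against WT, by construction of fewer members tested, and thinning left 6 higher unwounded and 5 higher after HDW. With adjusted p alone the counts higher and lower were 23 and 8 for GCN2KO against WT unwounded, 19 and 10 after HDW, 15 and 6 for WT and 9 and 3 for GCN2KO after HDW against unwounded, and 4 and 8 for the interaction. Leaving out 1 library gave 9 to 9 members higher and 4 to 5 lower in GCN2KO unwounded, 8 to 9 and 4 to 5 after HDW, 3 to 4 and 0 to 1 for WT after HDW against unwounded, 0 to 0 in both directions for GCN2KO, and 0 to 1 and 2 to 3 for the interaction. The cause of these changes was not tested.

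Libraries with the same replicate number did not deviate together (mean correlations of 0.0208, 0.0358, 0.00338 and -0.0921 in the 4 pairwise comparisons), so the number was not taken as a pairing. With the replicate block the counts higher and lower were 9 and 4, 8 and 4, 4 and 1, and 0 and 0 in the pairwise comparisons and 0 and 3 in the interaction. Members near the count floor, such as CRNN in WT, LCE3E and CDSN, are limited by depth.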
